A study of Arabidopsis thaliana with 6 samples.

Results

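The genes described here are 7 loci of Arabidopsis thaliana that switch the seed maturation program on or off, out of 27432 protein-coding genes on the nuclear chromosomes. They were taken by locus number. There are 5 activators, LEC1 (AT1G21970), L1L (AT5G47670), LEC2 (AT1G28300), FUS3 (AT3G26790) and ABI3 (AT3G24650). The other two are the VAL repressors VAL1 (AT2G30470) and VAL2 (AT4G32010). A peak was counted for a gene when it overlapped the gene span or lay within 1 kb of it.

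LEC1 and LEC1-LIKE (L1L) are B subunits of the heterotrimeric transcription factor NF-Y, which binds CCAAT boxes. LEC2, FUS3 and ABI3 carry a plant B3 DNA-binding domain, which recognises RY elements in promoters of seed genes, and with LEC1 they drive storage protein and oil accumulation in the embryo. VAL1 and VAL2 carry a B3 domain too, but they recruit Polycomb complexes and histone deacetylases, and the activator genes are kept silent in this way after germination. The activators are normally off in vegetative seedlings, while VAL1 and VAL2 are expressed there.

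The series maps binding sites of DEK3, a plant homologue of the chromatin protein DEK, by chromatin immunoprecipitation and sequencing (ChIP-seq). Material was Col-0 seedlings kept on soil for 14 days with 16 h light and 8 h dark, and every plant carried an AtDEK3 overexpression transgene with a cyan fluorescent protein (CFP) tag. A GFP antibody was used on sonicated nuclei of 3 independent overexpressor lines, OE3-1, OE9-1 and OE17-4. Each line gave 1 ChIP library, with its own peak list, and 1 input. The 3 inputs were not analysed here, the promoter of the transgene is not given in the sources used here, and no library without the transgene was compared. Chromatin came from whole seedlings, so strong binding in few cells and weak binding in many cannot be told apart.

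The lists of OE3-1, OE9-1 and OE17-4 held 5332, 3733 and 3426 peaks. Total library depth is unknown, so reads in a peak are compared within a list alone. None of the peaks described for the 7 genes is among the 18 rows whose region was written with 3 dots. The authors let peaks through up to a Wilcoxon filter p-value of 0.1 for OE3-1 and OE9-1, but of 8.88e-04 for OE17-4, so the lists do not have equal limits.

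In all, 6 of the 7 genes had a peak within 1 kb in some line, and ABI3 had none. Both VAL genes had peaks in OE3-1 and in OE9-1, and neither had one in OE17-4. Among the activators, L1L and FUS3 had a peak in OE3-1, LEC1 and LEC2 in OE17-4, and none in OE9-1. Each activator with a peak thus had it in a single line, and each VAL gene had peaks in a pair of lines. This contrast depends on how a peak is given to a gene and on how strict the limits for a peak are. By the authors' gene column LEC2 had peaks in 2 lines, OE9-1 and OE17-4, and VAL2 in OE3-1 alone. LEC2 also had 2 lines with 2 kb flanks, and VAL2 had OE3-1 alone with the gene span. In the upper 50% of each list by FDR, VAL2 had no peak. With the Wilcoxon limit of OE17-4 applied to all lists, VAL1 had none and VAL2 had OE3-1 alone.

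These counts stand beside the share of all protein-coding genes that had a peak by the same rule. In OE3-1 it was 4 of 7 against 22.5% of genes, in OE9-1 2 of 7 against 12.2%, and in OE17-4 2 of 7 against 13.9%. For any line it was 6 of 7 against 41%, for at least 2 lines 2 of 7 against 7.2%, and for all 3 lines 0 of 7 against 0.427%. Genes are not replicates of a condition, and no test was made over 7 chosen loci. With the gene span alone, 4 of 7 had a peak in any line against 26.8% of genes.

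**Figure D1:**
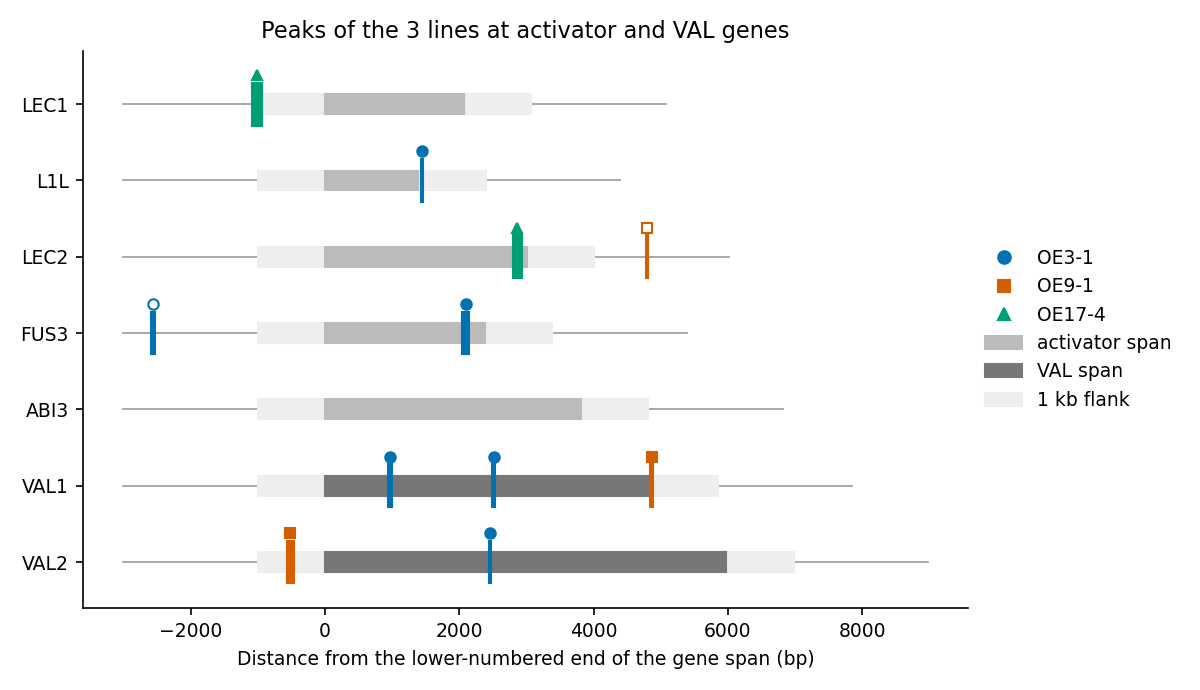
Map of the 7 genes, each drawn to scale from the lower-numbered end of its span (bp, x axis), with activator spans in light grey, VAL spans in dark grey and 1 kb flanks in pale grey. Coloured bars are peaks within 3000 bp, drawn at their length and topped by the symbol of their line, with open symbols for peaks beyond 1 kb; both VAL genes carry OE3-1 and OE9-1 peaks, and ABI3 carries none.

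The NF-Y subunit genes had peaks beside their spans and not in them. At LEC1 the OE17-4 peak lay on chromosome 1 at 7726489 to 7726637, with 149 bp and 100 reads. It ended 940 bp from the LEC1 span, and it overlapped the neighbouring gene AT1G21960, which the authors named for it. Its false discovery rate (FDR), the authors' estimate per peak, was 4.77%, and 97.5% of the OE17-4 list had a lower one. Of the counted peaks it lay nearest to the 1 kb limit. In OE3-1 and OE9-1 the nearest peaks were 27.3 kb and 28 kb from LEC1.

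L1L had an OE3-1 peak on chromosome 5 at 19316207 to 19316238. It was 31 bp long by the authors' column, shorter than a 36 bp read, and held 189 reads at an FDR of 2.99%. It lay 38 bp past the L1L span. The authors named it for L1L, under its family name NF-YB6, but it lies inside the span of TRM10 (AT5G47680), a tRNA modification gene that overlaps the end of L1L. Nearest peaks of OE17-4 and OE9-1 were 3.27 kb and 6.58 kb away.

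The B3 activators LEC2 and FUS3 each had a peak inside the span, close to its upper-numbered end. The LEC2 peak of OE17-4, on chromosome 1 at 9899668 to 9899798, held 225 reads, more than 90.6% of the peaks in that list had, at an FDR of 0.47%. Its midpoint lay 95.2% of the way along the span, 143 bp from the end. An OE9-1 peak at 9901645 to 9901676, with 174 reads and an FDR of 4.01%, was also named for LEC2 by the authors. It lay 1769 bp past the span, the closest peak outside the 1 kb limit, and is not counted. The nearest OE3-1 peak was 28.1 kb away.

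FUS3, which acts downstream of and together with LEC2, had an OE3-1 peak on chromosome 3 at 9855874 to 9855970. It held 203 reads at an FDR of 1.05%, with its midpoint at 87.8% of the span and 290 bp from the end. A second OE3-1 peak, at 9851244 to 9851299, had 390 reads and an FDR of 0.51%. It lay 2529 bp from FUS3, inside the neighbour AT3G26782, and is not counted. Nearest peaks of OE9-1 and OE17-4 were 10.2 kb and 25.1 kb from FUS3.

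ABI3, the abscisic acid response regulator of late maturation, is the longest of the activators, at 3.82 kb. Its nearest peaks were 3.52 kb away in OE3-1, 5.06 kb in OE9-1 and 23 kb in OE17-4. The nearest of them, on chromosome 3 at 9004704 to 9004802 with 259 reads, was named for TMKL1, the next gene. A nearer peak of some line was found for 66.2% of all protein-coding genes. To have no peak within 1 kb in any line is a common state, found for 59% of all genes. In its length class, 2 to 4 kb, 54.4% of genes had no peak within 1 kb in any line.

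VAL1, listed by the authors as HSI2, had 3 peaks, the most of the 7 genes. In OE3-1 a peak on chromosome 2 at 12981374 to 12981431 held 229 reads at an FDR of 2.83%, and a second at 12982921 to 12982966 held 230 reads at 0.16%. They lay at 20.1% and 51.9% of the span, 1490 bp apart. The second had a lower FDR than all but 5.46% of the OE3-1 list. The OE9-1 peak, at 12985268 to 12985313, crossed the upper-numbered end of the span, with 165 reads and an FDR of 0.19%, and 2.38% of the OE9-1 list had a lower one. It lay 2302 bp from the nearer OE3-1 peak. OE17-4 had no peak within 5.13 kb of VAL1.

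VAL2, listed as HSL1, had an OE3-1 peak on chromosome 4 at 15481820 to 15481855, with 211 reads and an FDR of 3.16%, at 41.1% of the span. It was 35 bp long by the authors' column, like the L1L peak shorter than a 36 bp read. The OE9-1 peak at 15478810 to 15478916 held 289 reads at an FDR of 3.8% and lay outside the gene, 463 bp from it. The authors named AT4G32000 for that peak, although that gene is 1820 bp away, farther than VAL2. The OE3-1 and OE9-1 peaks of VAL2 were 2904 bp apart, and no peak of one line overlapped a peak of another at any of the 7 genes. The nearest OE17-4 peak was 12.2 kb from VAL2.

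The symbol HSL1 stands for different genes. In addition to the VAL2 peak, an OE3-1 peak at 9999569 to 9999628 and an OE17-4 peak at 9999021 to 9999169, both on chromosome 1, carry it. They lie in AT1G28440, HAESA-like 1, which encodes a receptor kinase and is no VAL gene. Taken by name alone, VAL2 would have gained an OE17-4 peak. All counts here used position.

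**Figure D2:**
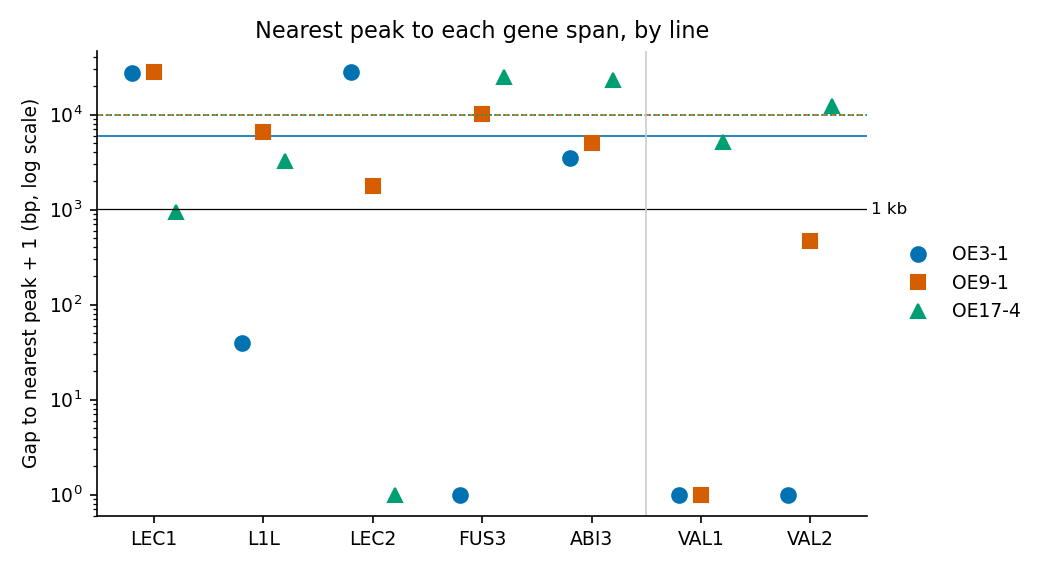
Gap in bp plus 1, on a log scale, from each gene span to the nearest peak of each line; a gap of 0 is drawn at 1. Coloured horizontal lines are the medians over all protein-coding genes (5.9 kb in OE3-1, solid, 10 kb in OE9-1, dashed, and 9.87 kb in OE17-4, dotted), the black line marks 1 kb, and activators stand left of the VAL genes.

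By nearest peak, OE17-4 was the farthest line for VAL1, VAL2, FUS3 and ABI3 and the nearest for LEC1 and LEC2. OE9-1 came within 1 kb of both VAL genes and of no activator. For LEC1 and LEC2 the OE3-1 gaps were greater than those of 85.7% and 86.1% of all genes. For VAL2 the OE17-4 gap was greater than that of 56.5% of genes, so it was not far out of the usual range.

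The VAL genes are long, with spans of 4.85 kb and 5.98 kb against 1.39 to 3.82 kb for the activators, and longer spans hold more peaks. Of the genes over 4 kb, 42.7% had an OE3-1 peak within 1 kb, 17.6% an OE9-1 peak and 21.1% an OE17-4 peak. A peak in any line was found for 62.3% of them and peaks in at least 2 lines for 17.7%. The pattern of both VAL genes, OE3-1 and OE9-1 without OE17-4, was held by 6.03% of genes over 4 kb and by 2.25% of all genes. At least 2 OE3-1 peaks, as at VAL1, were found for 11.9% of genes over 4 kb.

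Of genes of 2 to 4 kb, the class of LEC1, LEC2, FUS3 and ABI3, 45.6% had a peak in any line. For genes under 2 kb, the class of L1L, it was 31.7%. Per length of span with flanks, the VAL genes held 5 peaks in 14.8 kb, or 33.7 per 100 kb over the 3 lists. The activators held 4 peaks in 22.7 kb, or 17.6 per 100 kb, and all protein-coding genes 12.5 per 100 kb. Per 100 kb, OE3-1 had 20.2 peaks at VAL genes and 8.82 at activators, against 6.17 at all protein-coding genes. OE9-1 had 13.5 at VAL genes and 0 at activators, against 2.97. OE17-4 had 0 at VAL genes and 8.82 at activators, against 3.35. Most genes, also among those over 4 kb, had no OE9-1 peak and no OE17-4 peak within 1 kb, so a value of 0 is common. The densities over the 3 lists rest on 5 peaks at VAL genes and 4 at activators. Those by line rest on 3 and 2 peaks in OE3-1, 2 and 0 in OE9-1, and 0 and 2 in OE17-4.

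**Figure D3:**
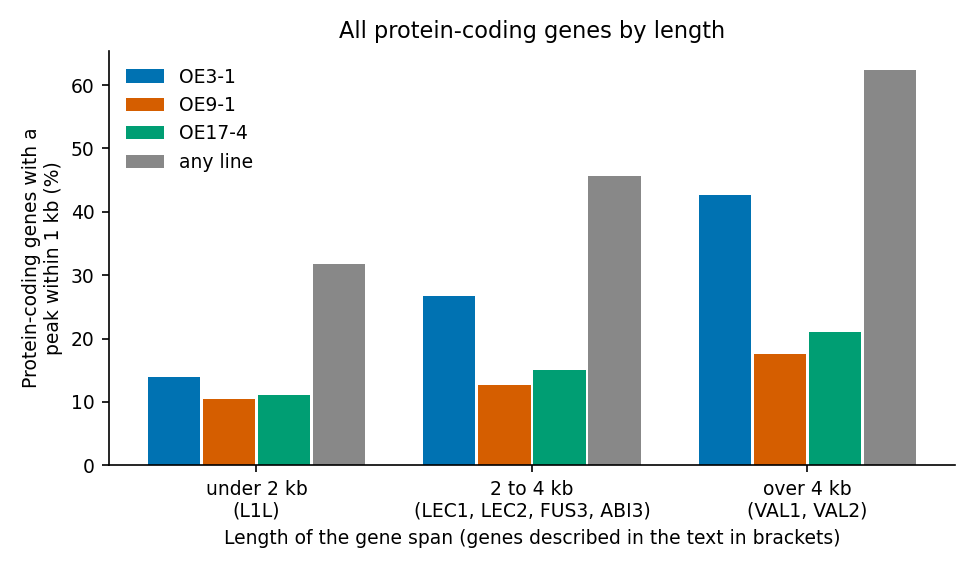
Share of all protein-coding genes with a peak within 1 kb (%, y axis) by length of the gene span, with a bar for each line and for any line and the genes described here under their class. Shares were higher for longer genes in every line, and went from 31.7% to 62.3% for any line.

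The 9 peaks were spread over their lists in strength. Reads per peak ranged from 100 to 289 and FDRs from 0.16% to 4.77%. The share of the same list with fewer reads ran from 14.3% for LEC1 to 90.6% for LEC2. For 4 of the 9 peaks, fewer than 50% of the peaks in the same list had a lower FDR. These were the second VAL1 peak of OE3-1, the VAL1 peak of OE9-1, FUS3 and LEC2, and all of them lay in or across a gene span. The peaks of LEC1, L1L and VAL2 and the first VAL1 peak had FDRs that more than 50% of their lists were below. By reads the order was another one, since the VAL2 peak of OE9-1 had the most reads of the 9, more than 89.1% of the OE9-1 peaks had.

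In the upper 50% of each list by FDR, LEC2, FUS3 and VAL1 alone kept a peak, VAL1 in both OE3-1 and OE9-1, against 23.8% of all genes with a peak in any line and 2.02% in at least 2 lines. The Wilcoxon filter p-values were 0.03 to 0.08 for all OE3-1 and OE9-1 peaks but that of VAL2 in OE3-1, at 4.32e-04. They were 6.59e-06 and 2.02e-06 for LEC1 and LEC2 in OE17-4. Under the limit of the OE17-4 list, applied to all lists, LEC1, LEC2 and VAL2 had a peak, against 24% of all genes. VAL1, FUS3 and L1L then had none, and none of the 7 had peaks in at least 2 lines, against 2.08% of all genes.

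**Figure D4:**
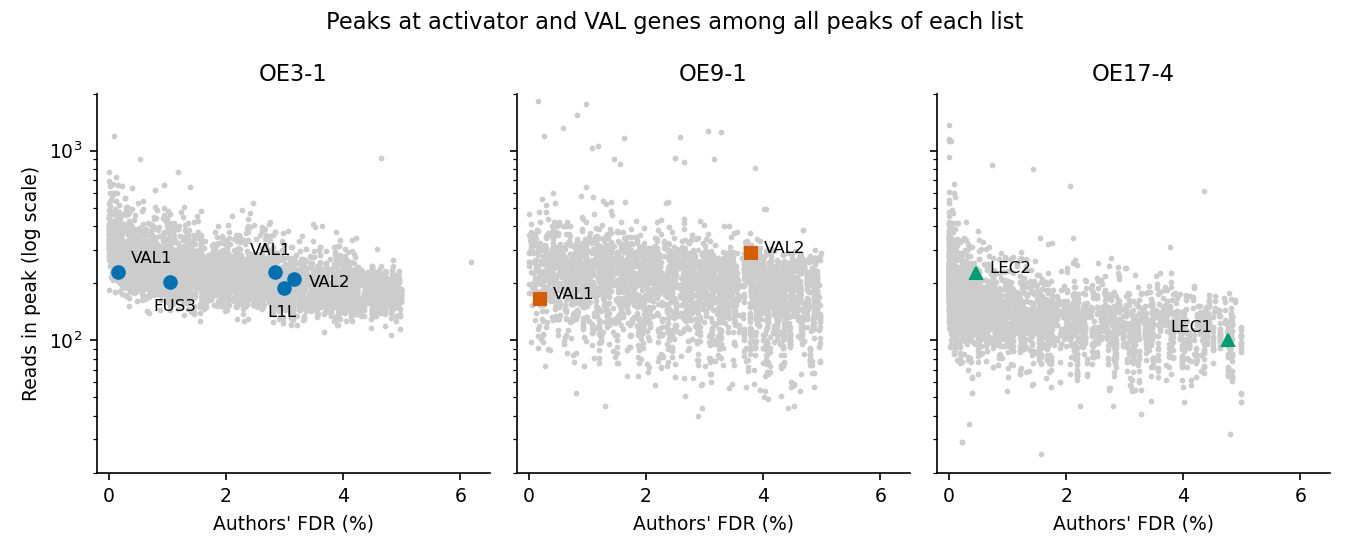
Reads in a peak (y axis, log scale) against the authors' FDR (%, x axis) for all peaks of each list in grey, with the 9 peaks within 1 kb of the 7 genes coloured and named. The axes leave out 4, 9 and 4 peaks of OE3-1, OE9-1 and OE17-4; FUS3, LEC2 and a VAL1 peak of each of OE3-1 and OE9-1 lie at FDRs of 0.16% to 1.05%, and LEC1 lies at 4.77%.

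Forward and reverse reads of a binding site are normally close to equal in number. The second VAL1 peak of OE3-1 was the least even, with 137 forward and 93 reverse reads (exact binomial test, 2-sided p = 0.00447, Benjamini-Hochberg adjusted over the OE3-1 list 0.0194). The first VAL1 peak had 98 forward and 131 reverse reads (exact binomial p = 0.0342, adjusted 0.0924). Unequal counts at an unadjusted p under 0.05 were found for 40.6% of the OE3-1 list, 25.7% of OE9-1 and 10.2% of OE17-4, and at an adjusted p for 31.3% of OE3-1, so uneven strands are common in OE3-1. These p-values take each read as an independent molecule and cover counting error only. The other 7 peaks did not pass, with L1L at 94 and 95, FUS3 at 107 and 96 and LEC2 at 111 and 114 forward and reverse reads.

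Related genes were counted by the same rule, from lists drawn up with earlier results of these data known. The third gene of the repressor family, VAL3 (AT4G21550), had no peak in any line. Its span of 5711 bp lies between those of VAL1 and VAL2, and 37.7% of genes over 4 kb had no peak in any line. Of 8 other NF-YB genes 1 had a peak. It was NF-YB10, whose OE17-4 peak, on chromosome 3 at 19773209 to 19773338, lay 980 bp outside. The authors named AT3G53330 for that peak. Of 6 NF-YC genes, which encode the subunit that pairs with NF-YB, NF-YC4 alone had peaks, 1 in OE9-1 and 2 in OE17-4. An OE17-4 peak inside NF-YC4, on chromosome 5 at 25416835 to 25416886, held 150 reads. The OE9-1 peak and the other OE17-4 peak lay outside the span, and the authors named AT5G63460 for them. Most of these genes are short, with median spans of 1087 and 1507.5 bp for the NF-YB and NF-YC lists. In the class under 2 kb, which holds NF-YC4, 31.7% of genes had a peak in any line and 3.61% had peaks in at least 2 lines.

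Of 12 other embryo and maturation transcription factor genes, 2 had an OE3-1 peak, 1 an OE9-1 peak and 1 an OE17-4 peak, against 22.5%, 12.2% and 13.9% of all genes. BZIP25, a leucine zipper gene of seed maturation, had peaks in OE3-1 and OE9-1, with 207 and 334 reads, 571 and 562 bp outside its span. The authors named them for other genes, HAG1 and AT3G54625. BZIP25 was the 1 of 12 with peaks in at least 2 lines, against 7.2% of all genes and 8.33% of those of 2 to 4 kb, its class. ABI4, an abscisic acid response regulator, had an OE17-4 peak of 150 reads inside the gene. BZIP10 had an OE3-1 peak of 177 reads 713 bp outside, which the authors named for AT4G02650. ABI5, WRI1, AGL15 and BBM were among the 9 without a peak.

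Genes for Polycomb subunits and other repressors of the embryo program numbered 23, of which 14 had a peak in any line, against 41% of all genes. Many of them are long. Of the 10 with spans over 4 kb, 5 had a peak in any line, against 62.3% of all genes of that length. Of the 11 with 2 to 4 kb 7 did, against 45.6%, and of the 2 under 2 kb 2 did, against 31.7%. OE3-1 peaks belonged to 9 of 23, beside 22.5% of all genes. In OE17-4 the count was 6, beside 13.9%, and in OE9-1 it was 3, beside 12.2%. These shares by line are over genes of all lengths. Peaks in at least 2 lines were found for 4 of 23, against 7.2% of all genes, namely RING1A, PKL, PKR1 and SAP18. PKL and PKR1 are the 2 of the 10 over 4 kb, against 17.7% of all genes of that length. RING1A is in the class of 2 to 4 kb, with a share of 8.33%, and SAP18 in that under 2 kb, with 3.61%.

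RING1A encodes a Polycomb ring-finger protein, and its peaks held 244 reads in OE3-1 and 164 in OE17-4, both inside the gene. Their FDRs were 4.0% and 4.16%, and 82% and 92.4% of the same lists had lower ones. PKL encodes the CHD3 remodeller that keeps embryonic genes off after germination. Its OE17-4 peak, with 105 reads and an FDR of 0.31%, crossed an end of the gene. Its OE9-1 peak, with 248 reads and an FDR of 2.67%, lay 515 bp outside. The authors named neither for PKL, but AT2G25169 for the OE17-4 peak and RR12 for the OE9-1 peak. PKR1, a relative of PKL, had 248 reads in OE3-1 and 143 in OE17-4, inside a span of 10631 bp. The FDRs were 0.29% and 3.73%, and 87.8% of the OE17-4 list was below the latter. SAP18, a subunit of SIN3 histone deacetylase complexes, had 257 reads in OE3-1 inside the gene and 194 in OE9-1 589 bp outside. The FDRs were 0.47% and 4.47%, and 89.7% of the OE9-1 list was below the latter. The authors named AT2G45630 for the OE9-1 peak.

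The histone deacetylase gene HDA19 had the peak with the second-lowest FDR in the OE3-1 list, 8.37e-06%, on chromosome 4 at 17899850 to 17899926 with 360 reads. It lay 341 bp outside the gene. HDA6, another deacetylase gene, had 2 OE3-1 peaks outside its span, the nearer with 229 reads at 167 bp. The authors named AT5G63100 for both. LHP1, which encodes a reader of Polycomb-marked histones, and PKR2 had OE17-4 peaks inside the gene with 178 and 238 reads. CLF and SWN, the genes for the vegetative Polycomb methyltransferases, had no peak in any line. Both are over 4 kb, a class in which 37.7% of genes had none. Among other Polycomb genes, EMF2 had OE3-1 peaks, FIE an OE17-4 peak and MEA an OE9-1 peak, all inside the gene. VRN2, FIS2 and MSI1 had no peak.

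Among 10 genes that the activators switch on in the seed, 4 had an OE17-4 peak, against 13.9% of all genes. Of the 7 with spans under 2 kb 1 did, against 11.1% of all genes of that length. All 3 with spans of 2 to 4 kb did, against 15%. In OE3-1 and OE9-1 0 had a peak, against 22.5% and 12.2% of all genes. The 4 with a peak were the cruciferin genes CRU3, CRU2 and CRA1 and the albumin gene SESA2, with 283, 116, 177 and 238 reads inside the gene. Their FDRs were 0.0057%, 1.11%, 4.78% and 0.02%, and 97.8% of the OE17-4 list was below that of CRA1. The other albumin genes listed, SESA1, SESA3 and SESA4, had no peak in any line, and neither had OLEO1, EM1 and EM6. Of the activators, LEC1 and LEC2 also had their peaks in OE17-4, and FUS3 and L1L did not. No test was made over these chosen genes. Over the 6 lists, 23 of 60 genes had a peak in any line, against 41% of all genes, and 0 had peaks in all 3 lines.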

How the data were processed

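The 3 ChIP libraries came with 1 peak list each. Reads are the authors' counts per peak, total and by strand, per the file headers. The FDR in percent, the Wilcoxon filter p-value, the normalized difference between strands, a fraction, and peak length were also deposited by the authors. The build was TAIR10, per the submitters' processing notes, and for the aligner and peak caller the sources used here give no name. Repeated regions and empty rows were dropped. Gene spans came from the RefSeq table of assembly TAIR10.1, without strand or exons, so peaks are placed by the lower- and upper-numbered end of a span, and no coordinates of that table are printed. Of the peaks named for a gene of the table, 96%, 64% and 91.3% in OE3-1, OE9-1 and OE17-4 lay within 1 kb of that gene, the check that positions match. The shares overlapping that gene were 78.6%, 35.2% and 74.9%. Most OE9-1 peaks thus lay outside the gene they were named for, and the check is weaker for OE9-1. Overlap meant at least 1 bp. Background shares are over all 27432 protein-coding genes. Strand balance was tested with an exact binomial test on every peak (scipy 1.17.1, Python 3.11.15), checked on simulated data. The genes, lists and rules were chosen with earlier results of these data known. All 7 genes are named, and from each related list those with peaks in at least 2 lines and up to 4 others by FDR. Further genes of these lists, most of them without a peak, are named outside that rule. Alternatives were other flanks, stricter FDR and Wilcoxon limits, midpoints, the authors' gene column and leaving out a line. Planned motif and protein comparisons were not run, since no sequence was used here.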

Additional observations from a re-analysis of the deposited data

How the results depend on the processing

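Of 47 values under an alternative, 29 were within 1.5 times the main count and 18 were not, and the causes were not tested beyond what each alternative removes. All values are numbers of genes with a peak unless said otherwise. With the gene span alone, OE9-1 had 1 (VAL1), OE17-4 had 1 (LEC2), and 2 activators had a peak in any line. OE17-4 also had 1 (LEC2) with 500 bp flanks and by peak midpoint, since the LEC1 peak lies near the 1 kb limit, and by the authors' gene column, which names AT1G21960 for that peak. In OE9-1 that column gave LEC2 and VAL1 in place of VAL1 and VAL2, and 2 kb flanks added LEC2. In the upper 50% of each list by FDR, OE3-1 had 2, OE9-1 had 1, OE17-4 had 1, and any line had 2 activators and 1 VAL gene. Under the common Wilcoxon limit OE3-1 had 1 and OE9-1 had 0, and any line had 2 activators and 1 VAL gene. That limit left 1980 peaks of OE3-1 and 850 of OE9-1. Leaving out each line in turn gave 2 to 4 activators, with 2 without OE3-1 (LEC1 and LEC2) and 2 without OE17-4 (L1L and FUS3), and 2 VAL genes each time. Adjusted over the list, 1 peak in place of 2 had unequal strand counts. No paired analysis was possible because the inputs were not analysed here and no test compares groups. The inputs, the unknown library depth and 1 library per line limit what a missing peak can show.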
